A study of Mus musculus with 16 samples.

Results

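Mouse chromosome 12 was covered at a reduced depth in every clonal line of one fibroblast family, and its CpGs were followed here across 16 target capture bisulfite sequencing (tcBS-seq) libraries. The members are the 33789 CpGs of chromosome 12 that had at least 10 reads in all 16 libraries, of 1334685 such CpGs on the autosomes and chromosome X (2.53%). Chromosome 12 was singled out because of its coverage in these libraries, so coverage is described without a test, and the tests concern methylation levels. All measured CpGs of chromosome 12 lay at a CpG of the reference sequence (GRCm38, also named mm10), of which they made up 3.53%.

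The cells were mouse embryonic fibroblasts (MEFs) from sibling C57BL/6J embryos at E13.5, immortalised by serial passaging through crisis. MEF-1 (male) and MEF-2 (female) denote the 2 families. Each family gave 1 library of its parental culture and 7 libraries of clonal lines, each grown from a single sorted cell. No treatment or engineered allele separated the groups. Each family goes back to 1 embryo and 1 immortalised culture, so sex, embryo, culture history and the copy number of chromosome 12 cannot be told apart in a comparison of families, and p-values measure the spread between clonal lines only. The parental libraries have no replicate and enter no test.

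A CpG in a single cell with a pair of homologous chromosomes can be methylated on both, on neither or on only one of them. With a single copy no difference between homologous copies is possible, and intermediate levels in a clonal line can then come from differences between cells or from hemimethylated CpGs, which are methylated on only one DNA strand. Chromosome 12 also carries the imprinted Dlk1-Dio3 domain, in which the copy inherited from the father is normally methylated in the interval upstream of Meg3 and at the Meg3 start. Dlk1, which encodes a membrane ligand related to Notch ligands, is normally expressed from the paternal copy and the non-coding RNA Meg3 from the maternal copy.

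Stretches of the regions with the main regional results are printed here on the plus strand, from the RefSeq sequence of GRCm38, in lower case with the measured CpGs in capitals. The first pair comes from the imprinted domain and shows the most densely measured stretch in the interval upstream of Meg3 and in the Meg3 start region. The other 4 come from the promoters that lead the differences between families, Rapgef5 and Cinp among those higher in MEF-1 and Gm29508 and Susd6 among those higher in MEF-2.
Meg3 upstream interval, chr12:109530266-109530558: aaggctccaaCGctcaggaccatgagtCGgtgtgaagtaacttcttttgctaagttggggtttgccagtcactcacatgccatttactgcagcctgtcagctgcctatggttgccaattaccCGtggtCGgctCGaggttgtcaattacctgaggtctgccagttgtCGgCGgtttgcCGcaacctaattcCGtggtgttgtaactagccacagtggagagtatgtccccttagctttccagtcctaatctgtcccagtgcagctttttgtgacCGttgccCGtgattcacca
Meg3 start region, chr12:109540563-109540861: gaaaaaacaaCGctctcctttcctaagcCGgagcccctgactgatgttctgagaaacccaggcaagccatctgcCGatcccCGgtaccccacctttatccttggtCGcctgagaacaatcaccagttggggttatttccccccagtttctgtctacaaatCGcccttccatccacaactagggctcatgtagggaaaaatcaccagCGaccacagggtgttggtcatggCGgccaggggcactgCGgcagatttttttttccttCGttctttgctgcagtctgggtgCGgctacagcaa
Rapgef5 promoter, chr12:117533334-117533595: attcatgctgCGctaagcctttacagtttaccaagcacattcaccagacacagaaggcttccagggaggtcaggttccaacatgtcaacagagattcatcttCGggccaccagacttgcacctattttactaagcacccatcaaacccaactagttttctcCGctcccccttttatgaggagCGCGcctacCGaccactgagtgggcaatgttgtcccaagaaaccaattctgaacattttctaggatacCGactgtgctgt
Cinp promoter, chr12:110889948-110890142: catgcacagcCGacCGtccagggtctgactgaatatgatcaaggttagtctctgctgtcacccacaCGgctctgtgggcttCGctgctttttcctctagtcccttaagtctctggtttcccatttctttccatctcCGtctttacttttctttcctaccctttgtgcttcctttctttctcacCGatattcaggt
Gm29508 promoter, chr12:103315420-103315475: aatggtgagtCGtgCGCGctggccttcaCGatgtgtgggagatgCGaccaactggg
Susd6 promoter, chr12:80790179-80790223: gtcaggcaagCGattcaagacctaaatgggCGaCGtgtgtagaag
Both Meg3 stretches lie outside annotated exons, upstream of the Meg3 start at position 109541001. The Rapgef5 stretch is intronic and sits before an internal transcript start of that gene. The Susd6 stretch holds 3 of the 5 CpGs of that promoter and a smaller difference than the whole, 3.36% ± 2.92 (SD, n = 7) in MEF-1 against 25.3% ± 8.24 in MEF-2 clonal lines. The Cinp stretch lies in an intron of Tecpr2, the Gm29508 stretch in an intron of Fam181a, and the Susd6 stretch in an exon of the divergent non-coding gene Gm47941.

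Relative coverage, which is the share of a library's calls on chromosome 12 against its calls on 16 other autosomes (all but chromosomes 12, 18 and 19), was scaled to the median of the MEF-2 clonal lines. It was 0.522 at the lowest, 0.541 at the median and 0.551 at the highest among the 7 MEF-1 clonal lines, 0.688 in the MEF-1 parental culture, while MEF-2 clones ran from 0.984 to 1.04. Every MEF-1 clonal line was thus covered at slightly more than 50% of the MEF-2 level, and the parental culture sat between its own clones and MEF-2. The reduction ran along the whole chromosome: over its 12 windows of 10 Mb the MEF-1 clonal lines spanned 0.504 to 0.609, with the upper end in the window from 20 to 30 Mb. Chromosome X, present once in male cells, gave 0.524 to 0.563 in the MEF-1 clonal lines. Relative coverage does not give the absolute number of copies.

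**Figure D1:**
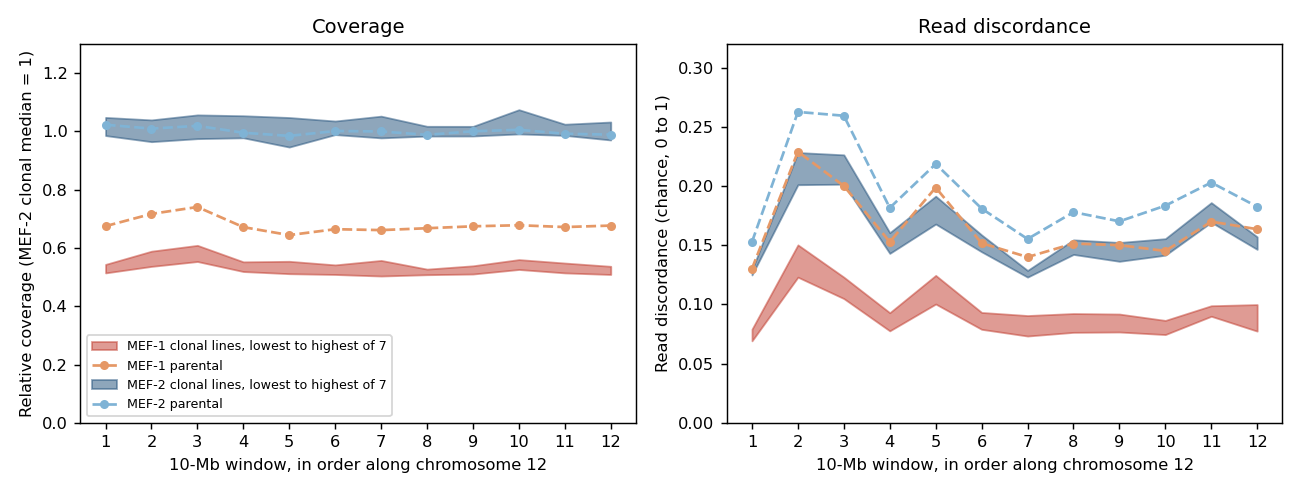
Left, relative coverage (MEF-2 clonal median = 1) and right, read discordance (chance from 0 to 1 that 2 reads of a CpG differ) over the 12 windows of 10 Mb in their order along chromosome 12. Bands span the lowest to the highest of 7 clonal lines and broken lines are the parental libraries. The MEF-1 clonal band stays below the MEF-2 clonal band in every window in both panels, and the MEF-1 parental culture lies between them in coverage.

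Libraries held 59243669 to 90633091 CpG calls. On the members, median depth was 21 to 29 reads per CpG for MEF-1 clones and 41 to 55 for MEF-2 clones, so shares of CpGs in a level range were compared after thinning every CpG to 10 reads in each library. Of the 68430 chromosome 12 CpGs with 10 reads in all 8 MEF-2 libraries, 49.4% also passed in MEF-1, against 88.7% on the 16 other autosomes. Members whose shallowest library had exactly 10 reads averaged 47.2% methylation in MEF-1 and 44.3% in MEF-2 clonal lines, and CpGs just outside the minimum, at 9 reads, 44.8% and 41.9%. Between 18 and 24 Mb, 5411 members had a median depth of 82 to 112 reads among MEF-2 clones and 44 to 62 among MEF-1 clones, above the 39 to 52 and 20 to 27 of the remaining members. Reads from near-identical copies in this stretch were not tested for, so values taken from it are uncertain. MEF-1 lines 1, 4 and 5 also had low relative coverage of chromosome 18, at 0.517 to 0.531. Chromosome 19 was high in the MEF-1 clonal lines, at 1.36 at the lowest and 1.47 at the median. Of the 16 other autosomes, some were shifted in coverage by more than 0.1. These were 4 in MEF-1 line 1, 3 in line 7, 2 in line 5, 1 each in lines 2, 3 and 6, and 0 in line 4. Among MEF-2 clonal lines they were 2 in line 3, 1 in line 4 and 0 in the others. The 16 autosomes are thus not free of coverage shifts. Of the promoters of 10 fibroblast and 7 other marker genes, 5 of each list could be measured. Vim, a mesenchymal filament gene, was at 0.663 to 2.56% in all 16 libraries, while Thy1, a fibroblast surface marker, was at 85.9 to 97.7%. The other fibroblast promoters were Pdgfra at 20.2% in MEF-1 and 2.65% in MEF-2 clonal lines, Col1a1 at 11.1% and 20.4%, and S100a4 at 46.1% and 42.6%. Of the markers of other cell types, Ptprc was at 67.5% and 79.5%, Pecam1 at 81.4% and 68.4%, Pou5f1 at 56.5% and 39.2%, Epcam at 22.04% and 9.39%, and Cdh1 at 22.1% and 19.8%. Promoter methylation is not expression, and the part of these differences in the results was not tested.

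Intermediate methylation was scarce on chromosome 12 in the MEF-1 clonal lines and common in the MEF-2 clonal lines. After thinning, the share of members at 40 to 60% was 2.65% at the lowest, 3.13% at the median and 4.94% at the highest of the MEF-1 clonal lines, against 12.5%, 12.8% and 13.0% in the MEF-2 clonal lines. The groups did not overlap. On the 16 other autosomes the same share was 10.3 to 10.7% in MEF-1 and 10.3 to 10.8% in MEF-2 clonal lines. The chromosome 12 share minus the share on the other autosomes was -6.86 points ± 1.06 (SD, n = 7) for MEF-1 clones and 2.11 points ± 0.243 (SD, n = 7) in MEF-2 clonal lines, so that the contrast came to -8.96 points (exact permutation test, two-sided, p = 0.000583, which no arrangement of 7 against 7 can go below, adjusted p = 0.000874 over 9 single-value tests). Without the stretch from 18 to 24 Mb the contrast was -8.43 points, and the MEF-2 share on chromosome 12 was 11.6% ± 0.148 (SD, n = 7), nearer to the 10.6% ± 0.152 of the other autosomes. With all reads in place of 10, MEF-1 clonal lines had 1.32 to 3.84% and MEF-2 clonal lines 11.1 to 12.6% of members in this range.

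Both ends of the range held larger shares of members in MEF-1 than in MEF-2, and the classes between them held smaller ones. In the MEF-1 clonal lines 42.8% ± 0.912 (SD, n = 7) of members had at most 1 of 10 reads methylated and 43.5% ± 0.540 had at least 9, compared with 37.4% ± 0.418 and 34.7% ± 1.2 in the MEF-2 clonal lines. At 20 to 30% the shares were 5.64% ± 0.249 and 7.08% ± 0.459, and at 70 to 80% 4.35% ± 0.466 and 8.09% ± 0.588. The 3 lines with low chromosome 18 coverage had the higher intermediate shares on chromosome 12. Lines 1, 4 and 5 were at 4.45%, 4.94% and 4.74%, and lines 2, 3, 6 and 7 at 2.65 to 3.13%. The MEF-1 parental culture had 9.91% of members at 40 to 60% and the MEF-2 parental culture 14.4%.

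**Figure D2:**
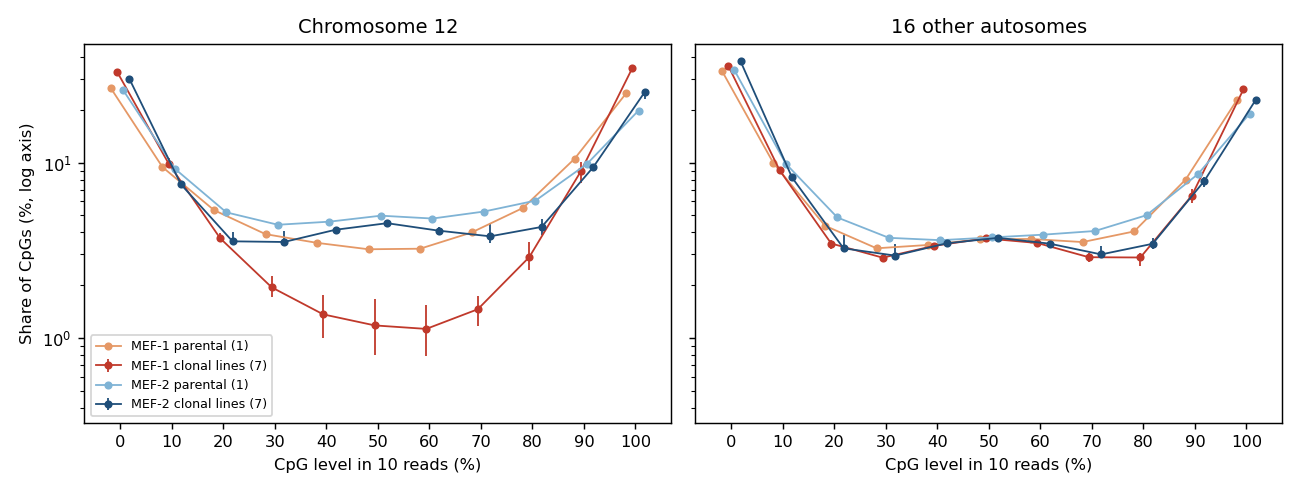
Share of CpGs (%, log axis) at each methylation level when every CpG is thinned to 10 reads, for chromosome 12 (left) and 16 other autosomes (right). Points are group means, with bars from the lowest to the highest of 7 clonal lines. On chromosome 12 the MEF-1 clonal lines dip at the middle levels, where they hold 2.65 to 4.94% of CpGs at 40 to 60% in all, and on the other autosomes both families hold 10.3 to 10.8% there, while MEF-1 clonal lines lie below MEF-2 at level 0 and above it at level 100.

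Read discordance, the chance that 2 reads of the same CpG in a library differ in methylation, gave a measure that does not depend on depth. On chromosome 12 it was 0.0875 at the lowest, 0.0968 at the median and 0.104 at the highest of the MEF-1 clonal lines, and 0.161, 0.163 and 0.176 in the MEF-2 clonal lines. The groups did not overlap and differed by -0.0685 (exact permutation test, p = 0.000583, adjusted p = 0.000874). On the 16 other autosomes the means were 0.137 ± 0.00235 (SD, n = 7) and 0.141 ± 0.00329, and the difference of chromosome 12 from them was -0.0406 in MEF-1 against 0.0240 in MEF-2 clonal lines (difference -0.0646, exact permutation test, p = 0.000583, adjusted p = 0.000874). Chromosome 12 was therefore more uniform than the 16 other autosomes in MEF-1 clonal lines and less uniform than them in MEF-2 clonal lines. Without 18 to 24 Mb the 2 groups had 0.0886 and 0.154, and within that stretch 0.139 and 0.226.

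Chromosomes X and 18 gave similar values where their coverage was low. Other autosomes with shifted coverage, chromosome 19 among them, were not examined singly for discordance. Chromosome X of the male MEF-1 clonal lines had a discordance of 0.0801 to 0.0917, below that of chromosome 12 within each line, though the ranges overlapped. With 18 to 24 Mb left out, the chromosome 12 mean was 0.0886, close to 0.0874 for chromosome X. Lines 3 and 6 were then lower on chromosome 12. In the female MEF-2 clonal lines chromosome X had 0.289 to 0.306. Chromosome 18 had 0.0912, 0.0978 and 0.0952 in MEF-1 lines 1, 4 and 5, where its coverage was low, and 0.149 to 0.157 in the other 4 MEF-1 clonal lines, where relative coverage was 0.924 to 0.999. The MEF-1 parental culture was at 0.170 on chromosome 12 and 0.155 on the other autosomes, and the MEF-2 parental culture at 0.201 and 0.169.

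**Figure D3:**
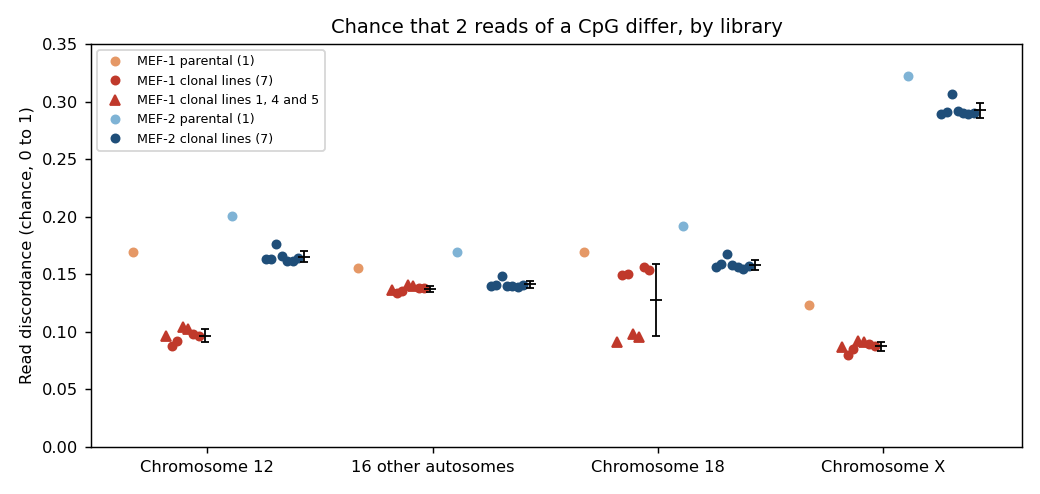
Read discordance (chance from 0 to 1 that 2 reads of a CpG differ) in each of the 16 libraries on 4 sets of chromosomes. Black marks are the mean ± SD of 7 clonal lines and triangles are MEF-1 lines 1, 4 and 5. On chromosome 12 the 7 MEF-1 clonal lines lie at 0.0875 to 0.104, below the MEF-2 clonal lines at 0.161 to 0.176, while on 16 other autosomes the families lie close together. On chromosome 18 only the triangles are low.

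Discordance was lower in MEF-1 than in MEF-2 clonal lines in every window and every sequence context examined. In the 12 windows of 10 Mb window means ran from 0.0752 to 0.137 for MEF-1 clones and from 0.127 to 0.212 for MEF-2 clones. The highest MEF-1 line lay below the lowest MEF-2 line in all 12. This count was not made for windows of other autosomes, so nothing particular to chromosome 12 is read from it. The 6351 members in promoters had 0.0693 ± 0.00359 (SD, n = 7) for MEF-1 and 0.112 ± 0.00425 in MEF-2 clonal lines. Members in gene bodies had 0.0889 and 0.158, and intergenic members 0.121 and 0.203. By the number of other CpGs within 100 bp, members with 0 to 2 neighbours had 0.106 and 0.190, members with 3 to 9 had 0.0925 and 0.161, and members with 10 or more had 0.0932 and 0.144. Without 18 to 24 Mb the last pair was 0.0660 and 0.0952, and on the 16 other autosomes CpGs with 10 or more neighbours had 0.0795 and 0.0761. With the stretch included, MEF-1 clonal lines were thus not lower in this class than on the other autosomes, and the same held for the window from 10 to 20 Mb, at 0.137 against 0.137. Intergenic CpGs were the least uniform and promoter CpGs the most uniform of the 3 positions in both families. On the 16 other autosomes MEF-1 was also lower, by less, in gene bodies (0.140 against 0.146) and between genes (0.179 against 0.187). The same held there with 0 to 2 neighbours (0.174 against 0.184) and 3 to 9 (0.149 against 0.154). In promoters of those autosomes MEF-1 was higher (0.0932 against 0.0900). Chromosome 12 had fewer promoter CpGs and more intergenic CpGs among those measured (18.8% and 35.4%) than the 16 other autosomes (25.3% and 23.4%).

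CpGs that were intermediate in every MEF-2 clonal line took an extreme level in most MEF-1 clonal lines. On chromosome 12, 923 members were at 30 to 70% in all 7 MEF-2 clonal lines, as were 23696 CpGs of the 16 other autosomes. At these CpGs, thinned to 10 reads, 87.4% ± 2.36 (SD, n = 7) of chromosome 12 values in the MEF-1 clonal lines were under 20% or at 80% or more, against 60.1% ± 0.524 on the other autosomes. The chromosome 12 share was higher by 27.3 points ± 2.05 (SD), with 7 of 7 lines positive (exact sign-flip permutation test, two-sided, p = 0.0156, the smallest for 7 lines, adjusted p = 0.0201). Averaged over the MEF-1 clonal lines, 247 of the 923 were under 10%, 372 were at 90% or more, and 38 were at 40 to 60% (4.12%). Outside 18 to 24 Mb, 734 CpGs were chosen, and 25 of them were at 40 to 60%. On the other autosomes 27.6% of the chosen CpGs were at 40 to 60%.

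These CpGs were sorted by the mean of the MEF-1 clonal lines, which favours parental levels near the same ends. With this sorting, the MEF-1 parental culture had medians near the levels of its clones. Its median was 7.14% (quartiles 3.28 and 19.1%) at the 247 CpGs that were under 10% in the clones and 92.0% (quartiles 81.1 and 97.2%) at the 372 that were at 90% or more. On the other autosomes the corresponding medians were 5.56% (quartiles 2.50 and 10.3%) and 96.0% (quartiles 92.3 and 98.6%), so the chromosome 12 quartiles of the parental culture reached further from the extremes.

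The opposite choice, by the same rule in MEF-1, found 17 members, which were at 30 to 70% in all 7 MEF-1 clonal lines (0.0503% of members), whereas 39791 CpGs of the other autosomes were (3.31%). Of the 17, 8 lay in the deeply covered stretch from 18 to 24 Mb. Another 3, at positions 111545304, 111545317 and 111545479 in a UTR exon of Eif5, were covered about equally in both families, with a median of 40, 45 and 29 reads in MEF-1 and 38, 44 and 33 in MEF-2 clonal lines. At the 17 CpGs, 63.0% ± 5.60 (SD, n = 7) of MEF-2 values were under 20% or at 80% or more, against 58.5% ± 1.23 on the other autosomes (difference 4.56 points, positive in 5 of 7 lines, exact sign-flip permutation test, p = 0.0938). The difference did not pass. Leaving out 1 line gave 2.18 to 7.81 points, and the value passed without MEF-1 line 5 (7.04 points) or line 7 (7.81 points), both with p = 0.0469 in the exact test. When CpGs were instead chosen by a mean of 40 to 60% over the 7 lines, 1374 members were found and the difference was 1.46 points (exact sign-flip permutation test, p = 0.0156), and without 18 to 24 Mb, where 9 CpGs remained, 9.79 points (exact sign-flip permutation test, p = 0.0312).

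Some CpGs of chromosome 12 were at opposite extremes in different MEF-1 clonal lines. After thinning, 405 members (1.2%) were at an extreme in all 7 MEF-1 clonal lines but low in some lines (at most 1 of 10 reads methylated) and high in others (at least 9 of 10). The same held for 24 members in MEF-2 clonal lines (0.0710%) and for 446 of 1203687 CpGs on the other autosomes in MEF-1 (0.0371%). Outside 18 to 24 Mb there were 364. The MEF-1 parental culture had widely spread levels at the 405 CpGs, with a median of 52.5% and quartiles of 15 and 86.4%. The median over these CpGs of the MEF-2 clonal mean was 49.2%.

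These 405 CpGs were spread over all 12 windows, in 206 stretches more than 100000 bp apart. Line 6 alone differed from the other 6 lines at 109 of them, line 2 alone at 88, line 7 alone at 62 and line 3 alone at 49. Lines 1, 4 and 5 had the same state at 390 of 405 (96.3%), as they had at 95.7% of the 446 CpGs of the other autosomes, and each of these lines was alone at only 2 to 4. Outside 18 to 24 Mb, any pair of lines 1, 4 and 5 differed by more than 80 points at 0.116 to 0.159% of CpGs. Pairs of lines 2, 3, 6 and 7 differed so at 1.48 to 3.03%, pairs across the 2 sets at 1.70 to 2.33%, and the 21 MEF-2 pairs at 0.0529 to 0.300%. Lines 1, 4 and 5 were thus more alike than the other MEF-1 lines. The tests count them as separate replicates, so p-values over all 7 MEF-1 lines may be too small.

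As a share of the summed variance between reads, differences between clonal lines made up 26.1% ± 2.37 (jackknife SE over 7 lines) on chromosome 12 in MEF-1 and 10.6% ± 0.894 on the other autosomes. Among MEF-2 clones the shares came to 14.3% ± 1.07 and 14.6% ± 1.02. The absolute variance between lines on chromosome 12 was 0.0171 for MEF-1 and 0.0138 for MEF-2, and the variance within lines 0.0484 and 0.0826.

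The parental state of a CpG was related to the clonal state differently on chromosome 12. Where the MEF-1 parental culture was at 40 to 60%, 16.7% ± 5.12 (SD, n = 7) of clonal values on chromosome 12 were at 40 to 60% after thinning, against 49.7% ± 1.79 on the other autosomes. There, 28.2% ± 4.29 of chromosome 12 values had at most 1 of 10 reads methylated and 24.4% ± 3.30 at least 9. In MEF-2 the intermediate parental CpGs of chromosome 12 kept an intermediate clonal level in 43.4% ± 1.06 of values, close to the 44.3% ± 0.864 of the other autosomes. Where the MEF-1 parental culture was under 10%, 94.4% ± 0.445 of clonal values remained low on chromosome 12 and 94.3% ± 0.315 on the other autosomes, and where it was at 90% or more, 95.0% ± 0.673 and 94.5% ± 0.987 remained high. The opposite extreme was rare in these classes. Clonal values were high at 0.347% ± 0.280 of chromosome 12 CpGs that were low in the parental culture (0.0280% ± 0.0222 elsewhere) and low at 0.333% ± 0.310 of those that were high in it (0.0351% ± 0.0308 elsewhere).

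Mean methylation changed little compared with the distribution of levels. The mean over members was 49.6% at the lowest, 50.2% at the median and 50.4% at the highest of the MEF-1 clonal lines and 47.4%, 48.9% and 49.4% in the MEF-2 clonal lines. The groups did not overlap and were 1.40 points apart (exact permutation test, p = 0.000583, adjusted p = 0.000874). The other autosomes also had higher means in MEF-1, at 44.0% ± 0.368 (SD, n = 7) against 42.4% ± 0.489. Chromosome 12 minus the other autosomes came to 6.07 points for MEF-1 clones and 6.30 points for MEF-2 clones (difference -0.231, exact permutation test, p = 0.0396, adjusted p = 0.0446). Leaving out 1 line lost this call for 10 of 14 lines, all but MEF-1 lines 3 and 7 and MEF-2 lines 3 and 6. That small difference turned to 0.436 points (p = 0.000583 in the same exact test) without 18 to 24 Mb, and the mean difference of 1.40 points became -0.108 points (exact permutation test, p = 0.755) with a minimum of 20 reads, which kept 12293 members and gave -1.83 points for the difference relative to the other autosomes.

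Of the 12 windows of 10 Mb, 9 passed at an adjusted p under 0.05, where 83.1% of the windows on all autosomes did. The 8 windows that were higher in MEF-1 (80.8% of all windows were) differed by 1.48 to 4.87 points. With a minimum of 20 reads 9 windows also passed (75%, 80.7% over all autosomes), but MEF-2 was the higher in 3 and MEF-1 in 6. Shares by direction over all autosomes were not taken at this minimum. The last window, from 110 to 120 Mb, had the largest difference, with 49.4% ± 0.787 (SD, n = 7) against 44.6% ± 0.620 in MEF-2 (exact permutation test, adjusted p = 0.000917). The window from 20 to 30 Mb was higher in MEF-2, at 49.0% ± 0.881 against 45.6% ± 0.450 (difference -3.38 points, adjusted p = 0.000917 in the same exact test), and 2.35% of all windows were. It holds most of the deeply covered stretch from 18 to 24 Mb, with a median of 40 reads in MEF-1 and 72 in MEF-2 clonal lines. Parental values in these windows were 49.3% and 45.2% from 110 to 120 Mb, and 44.0% and 45.2% from 20 to 30 Mb, for MEF-1 and MEF-2.

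The imprinted Dlk1-Dio3 domain showed opposite shifts at its genes. In the interval from 16000 to 10000 bp before the Meg3 start, where the paternal copy is normally methylated in the germline, 24 CpGs averaged 83.1% at the lowest, 90.8% at the median and 92.7% at the highest of the MEF-1 clonal lines, and 67.5%, 75.3% and 78.9% in the MEF-2 clonal lines. The groups did not overlap and differed by 14.1 points (exact permutation test, p = 0.000583, adjusted p = 0.000874). The parental cultures were at 86.0% and 75.6%, with 804 of 940 reads methylated in MEF-1 (85.5%, 95% Wilson interval 83.1 to 87.6%) and 1579 of 2075 in MEF-2 (76.1%, 74.2 to 77.9%). Intervals cover counting error only, since reads are not known to be independent molecules.

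At the Meg3 start, from 2000 bp before to 500 bp after it, the difference was larger. The 26 CpGs there averaged 82.2% at the lowest, 87.1% at the median and 91.3% at the highest of the MEF-1 clonal lines, and 37.5%, 43.2% and 51.5% in the MEF-2 clonal lines (difference 43.2 points, exact permutation test, p = 0.000583, adjusted p = 0.000874). Averaged over the region, the MEF-2 lines were thus at intermediate levels and the MEF-1 lines at high levels. Discordance at these CpGs was 0.0659 to 0.114 in MEF-1 and 0.407 to 0.463 in MEF-2 clonal lines. The MEF-1 parental culture lay between them in level, at 73.8%, with a discordance of 0.314, and the MEF-2 parental culture was at 42.3% and 0.438. In the printed stretch of this region, 11 CpGs averaged 85.6% ± 5.08 (SD, n = 7) in MEF-1 and 38.9% ± 3.99 in MEF-2 clonal lines. Only 1 of the 26 CpGs had 20 reads in all libraries, and its difference was 13.7 points (exact permutation test, p = 0.0204).

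Of 7 listed genes of the domain, 2 promoters and 5 gene bodies held at least 5 measured CpGs. The Meg3 promoter was higher in MEF-1 by 30.0 points (78.9% ± 3.72 against 48.9% ± 4.95, SD, n = 7) and the Dlk1 promoter was lower by 29.3 points (17.3% ± 6.39 against 46.7% ± 6.71), both with an adjusted p of 0.00254 in the exact permutation test. The Dlk1 promoter ranged from 11.5 to 30.5% in MEF-1 and from 38.5 to 57.5% in MEF-2 clonal lines without overlap, and the parental cultures were at 38.0% and 40.6%. Among the gene bodies, Meg3 (13.2 points) and Rtl1 (7.04 points), a gene derived from a retrotransposon, were higher in MEF-1. Rian (-28.7 points), which hosts small nucleolar RNAs, and Mirg (-7.63 points), which hosts microRNAs, were lower. Begain, at 35.4% ± 9.82 against 24.8% ± 8.03, did not pass (exact permutation test, adjusted p = 0.0751). Dio3, an enzyme that inactivates thyroid hormone, was not measured in either kind of region.

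**Figure D4:**
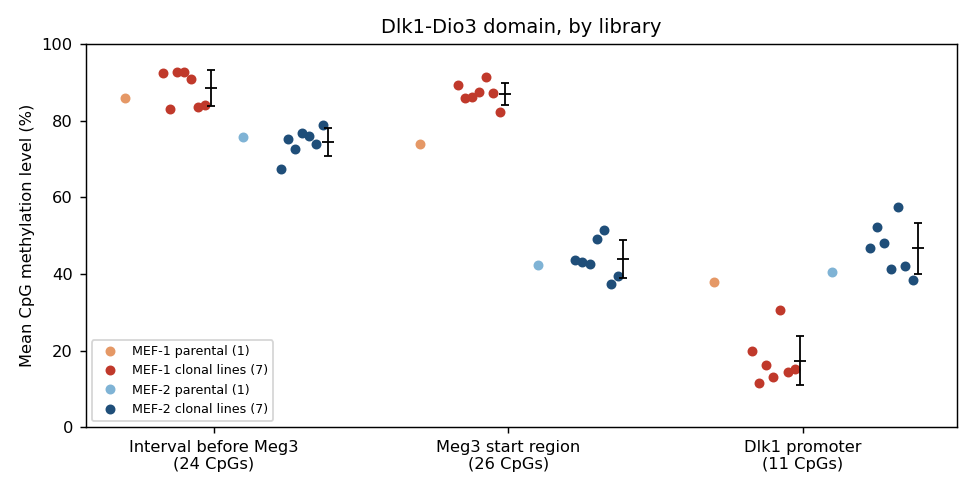
Mean CpG methylation level (%) in each library at 3 places of the Dlk1-Dio3 domain. Black marks are the mean ± SD of 7 clonal lines. The MEF-1 clonal lines lie above the MEF-2 clonal lines in the interval before Meg3 and at the Meg3 start (82.2 to 91.3% against 37.5 to 51.5%) and below them at the Dlk1 promoter.

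Over single CpGs, 8223 of 33789 members (24.3%) differed between the clonal lines of the families (quasi-binomial test, adjusted p under 0.05 over all autosomal CpGs), against 20.3% of all autosomal CpGs. Of these, 4635 were higher in MEF-1 (13.7%, background 11.7%) and 3588 higher in MEF-2 (10.6%, background 8.63%). Outside 18 to 24 Mb 22.9% of members were called, with 9.42% higher in MEF-2 and 13.4% higher in MEF-1. Members had a median absolute difference of 4.32 points, or 3.56 points outside that stretch, and all CpGs one of 3.02 points. Calls were concentrated where MEF-2 was intermediate. Among members with a MEF-2 clonal mean of 30 to 70%, 61.4% were called and the median absolute difference was 35 points, compared with 45.6% and 27.2 points on the 16 other autosomes. Among members under 10% in MEF-2, 7.78% were called, compared with 8.44%. These background shares also contain family differences unrelated to copy number. They include autosomes with shifted coverage, and those over all autosomes include chromosomes 12, 18 and 19.

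The single CpGs with the widest gaps changed from one extreme to the other. At position 56690242, in an intron of the antisense gene Gm15524 and 1525 bp from a start of Pax9, 2 of 248 reads of the 7 MEF-1 clonal lines and 477 of 487 reads of the MEF-2 lines were methylated (difference of mean levels -97.1 points, quasi-binomial test, adjusted p = 1.18e-08 over all CpGs). The MEF-1 parental culture was at 22.9% (95% Wilson interval 13.3 to 36.5%) and the MEF-2 parental culture at 97.5% (91.2 to 99.3%). At 20815550, in an exon of 1700030C10Rik and inside the deeply covered stretch, the counts were 1 of 233 and 320 of 327 (-97.5 points). In the other direction, position 86402761, in an intron of the nuclear receptor gene Esrrb, had 102 of 102 reads methylated in MEF-1 and 4 of 211 in MEF-2 (98.1 points, quasi-binomial test, adjusted p = 1.36e-07), with parental levels of 66.7% (43.7 to 83.7%) and 10.7% (3.71 to 27.2%). The intergenic position 111504911 had 118 of 119 and 3 of 232 (98.2 points). At all 4 positions the MEF-1 parental culture was less extreme than its clones. The positions were chosen for the widest gap between clonal lines, which left little room for a more extreme parental level.

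Promoters, taken as the 1000 bp before each transcript start, could be compared for 400 genes of chromosome 12. Of these 191 passed (47.8%, background 48.6%), 106 higher in MEF-1 (26.5%, background 29.6%) and 85 higher in MEF-2 (21.3%, background 19%). These shares were near the background of all autosomes. The median absolute difference was 3.28 points on chromosome 12 and 2.40 points over all promoters. Of 84 promoters at 30 to 70% in MEF-2, 9 had a MEF-1 clonal mean under 20% or of 80% or more (10.7%), as did 7.21% of 2706 on the other autosomes.

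Among promoters higher in MEF-1, Rapgef5, which encodes a guanine nucleotide exchange factor for Rap proteins, led. Its 12 CpGs were at 80.2% at the lowest, 82.3% at the median and 95.2% at the highest of the MEF-1 clonal lines and at 19.1%, 26.4% and 31.0% in MEF-2 (difference 59.6 points, exact permutation test, adjusted p = 0.00254). All of these CpGs lay inside the gene, 11 in introns and 1 in a coding exon, before internal transcript starts. Cinp, a genome maintenance protein that interacts with cyclin-dependent kinase 2, was at 31.1 to 53.7% in MEF-1 and 0.890 to 3.95% in MEF-2 (39.8 points), and the parental cultures were at 27.1% and 2.32%. Gstz1, an enzyme of tyrosine breakdown, was at 39.4% ± 2.44 (SD, n = 7) in MEF-1 and 2.53% ± 3.29 in MEF-2 clonal lines, and Cox16, an assembly factor of cytochrome c oxidase, at 39.2% ± 2.66 and 6.91% ± 3.76. Pole2, a subunit of DNA polymerase epsilon, was at 77.1% ± 4.67 in MEF-1 and 42.3% ± 3.96 in MEF-2, with discordances of 0.0706 and 0.237. Zc2hc1c (36.4 points), Tex22 (32 points) and Serpina1d (38.9 points), a protease inhibitor gene of a cluster of near-identical copies among which reads may have been divided, completed the 8. All 8, chosen among the promoters that passed, had an adjusted p of 0.00254 in the exact permutation test. Several differences were smaller over 1000 bp on each side of a start, at 7.54 points for Gstz1, 9.61 for Pole2, 15.1 for Cox16, 14.95 for Cinp and 20.7 for Zc2hc1c.

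Among promoters higher in MEF-2, the antisense RNA gene Gm29508 led with 5 CpGs, at 4.93% at the lowest, 22.9% at the median and 26.1% at the highest of the MEF-1 clonal lines and at 66.7%, 72.9% and 87.4% in MEF-2 (difference -56.2 points, exact permutation test, adjusted p = 0.00254). Susd6, a membrane protein with a sushi domain, was at 0.909 to 7.78% in MEF-1 and 48.7 to 57.3% in MEF-2 (-48.4 points). MEF-1 clones had a discordance of 0.0668 there and MEF-2 clones 0.219. Eif5, a translation initiation factor, was at 28.9% ± 8.27 (SD, n = 7) against 75.8% ± 7.43. Of its promoter CpGs, 4 lay in a UTR of Eif5 and 2 were intergenic. The Eif5 CpGs named above were covered about equally in both families, and the origin of those reads was not tested. Sstr1, a somatostatin receptor, had 46.4% ± 10.2 against 78.9% ± 11.4 and its lines overlapped, at 34.4 to 59.3% and 57.9 to 91.2% (exact permutation test, adjusted p = 0.00428). Insm2, a zinc finger factor of endocrine cells, and Kcns3, a potassium channel subunit, were at 26.6% and 6.27% in MEF-1 against 57.8% and 36.2% in MEF-2. The non-coding genes Gm47767 (-34.0 points) and Gm48633 (-33.1 points) completed the 8. Counted over 1000 bp on each side of a start, the difference was -11.1 points at Susd6 and -18.0 points at Sstr1. Except at Sstr1, the clonal lines of the families did not overlap at these 16 promoters. They were chosen as the widest differences that passed, so this separation was nearly fixed by the choice.

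**Figure D5:**
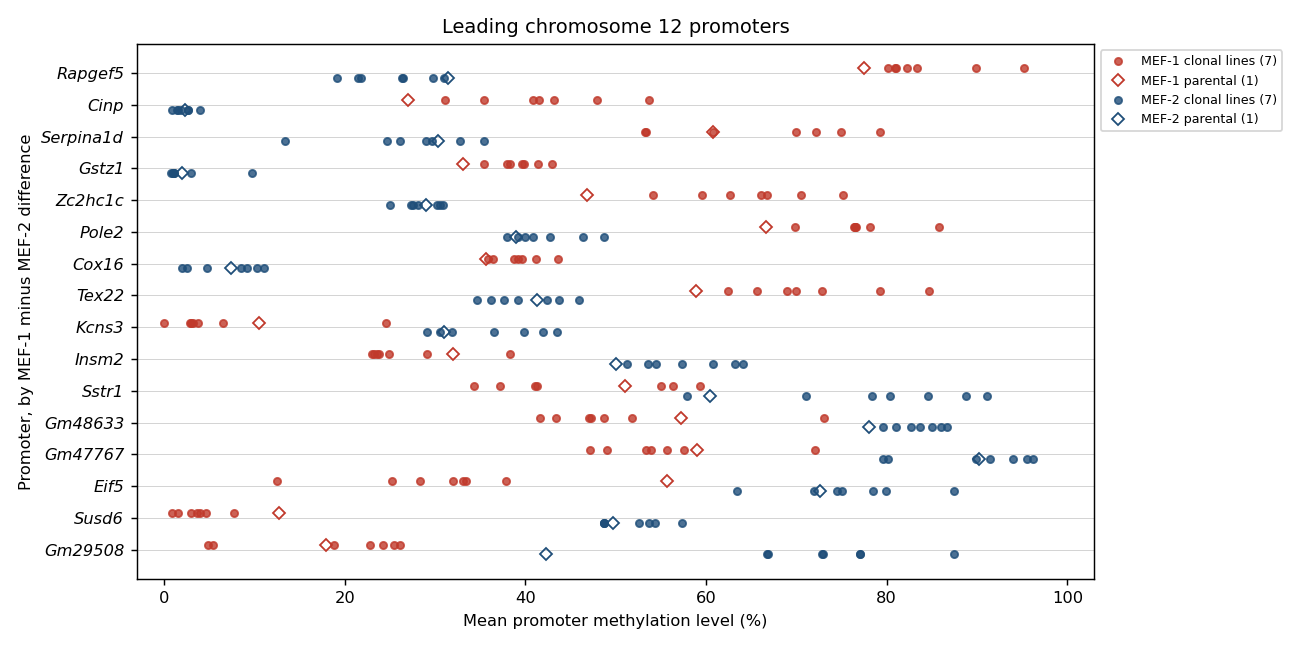
Mean methylation level (%) of the 16 leading promoters of chromosome 12, ordered by the difference between families, in each clonal line (points) and parental culture (diamonds). Red is MEF-1 and blue MEF-2. The MEF-1 diamond lies on the MEF-2 side of the MEF-1 clonal median at every promoter but Gm29508, for example at 12.7% for Susd6, whose MEF-1 clonal lines span 0.909 to 7.78%. The promoters were chosen for their clonal differences, which favours this position, so nothing is read from it.

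Each gene list is given with its counts beside the share of all autosomal promoters (48.6%) and gene bodies (56.6%) that passed, and nothing particular to a list is read from them. Of 31 developmental transcription factors, 14 promoters were measured, of which 2 were higher in MEF-1, 5 higher in MEF-2 and 7 did not pass (50.0% called, median difference -0.621 points, 0.439 over all promoters). Pax9, needed for skeletal and pharyngeal development, was at 14.0% ± 5.74 (SD, n = 7) in MEF-1 and 39.5% ± 3.58 in MEF-2, and Mycn, a growth-promoting factor, at 10.6% ± 3.10 and 22.5% ± 2.80. Klf11, a zinc finger factor, was higher in MEF-1, at 50.5% ± 1.43 against 27.6% ± 2.80. Both families were under 10% at 6 of the 14 promoters, among them Osr1, Fos and Esrrb. Of 26 measured bodies of this list 8 were higher in MEF-1 and 9 in MEF-2 (65.4% called).

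Genes of genome maintenance and growth moved in both directions. Of 13 measured promoters of 14 listed, 7 were higher in MEF-1 and 3 in MEF-2 (76.9% called, median difference 0.418 points). Besides Pole2, the mismatch repair gene Mlh3 was higher in MEF-1 by 27.4 points and the helicase gene Ddx1 by 12.7 points. Dnmt3a, a de novo DNA methyltransferase, was lower at the CpGs of its promoters, at 55.4% ± 7.21 (SD, n = 7) against 74.0% ± 10.4 (difference -18.7 points, exact permutation test, adjusted p = 0.00999), and its lines overlapped. Rrm2, at 0.604 points, and Rad51b, at 0.418 points, passed with small differences. Of their 13 measured bodies, 6 were higher in MEF-2 and 2 in MEF-1 (61.5% called).

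Of 12 matrix and growth factor genes 7 promoters were measured, and the 3 that passed were higher in MEF-2: Itgb8 (-16.2 points), an integrin subunit, Ltbp2 (-10.0 points), a protein of the elastic matrix, and Zfp36l1 (-1.95 points), a messenger RNA decay factor. Their bodies gave 5 higher in MEF-1 and 2 in MEF-2 of 10, with Flrt2, an adhesion molecule, at -20.2 points. Of 13 neuronal genes 10 promoters were measured, with 1 higher in MEF-1 (Syt16, 20.2 points) and 4 in MEF-2 (Sstr1, Kcns3, Nrxn3 and Nova1), and 13 bodies with 6 higher in MEF-1 and 4 in MEF-2 (76.9% called). In the Serpina cluster 1 of 2 promoters and 4 of 7 bodies were higher in MEF-1 and 2 bodies higher in MEF-2. No gene of the immunoglobulin heavy chain locus was in the set tested, which held protein-coding and long non-coding genes.

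Gene bodies could be compared for 668 genes, of which 393 passed (58.8%, background 56.6%), 232 higher in MEF-1 (34.7%, background 35.1%) and 161 higher in MEF-2 (24.1%, background 21.5%). Of 277 bodies at 30 to 70% in MEF-2, 23 had a MEF-1 clonal mean under 20% or of 80% or more (8.30%), as did 2.34% of 8294 on the other autosomes. Gm15524, the antisense gene beside Pax9 that holds the CpG at 56690242, led those higher in MEF-2. Its 32 CpGs were at 2.33% at the lowest, 3.45% at the median and 5.18% at the highest of the MEF-1 clonal lines and at 55.4%, 59.2% and 59.97% in MEF-2 (difference -54.8 points, exact permutation test, adjusted p = 0.00204), and the parental cultures were at 22.9% and 61.7%. The 85 CpGs of 1700030C10Rik were at 22.4% ± 1.69 (SD, n = 7) against 66.6% ± 3.44, and Gm10479 was at 7.56% ± 5.01 against 52.7% ± 8.60, both in the deeply covered stretch. With a minimum of 20 reads the Gm15524 difference was -87.9 points. Gm47941 shared all 5 of its CpGs with the Susd6 promoter. Gm33929 (-35.6 points) and Serpina11 (-30.8 points) were the other two.

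Of the bodies higher in MEF-1, Amn, a protein needed for vitamin B12 uptake, had 17 CpGs at 79.4% at the lowest, 87.6% at the median and 88.9% at the highest of the MEF-1 clonal lines and at 41.3%, 43.3% and 48.4% in MEF-2 (41.2 points, exact permutation test, adjusted p = 0.00204). Discordance in Amn was 0.0568 and 0.196. Ngb, the globin of neurons, was at 33.3 to 52.5% in MEF-1 and 2.10 to 9.30% in MEF-2, and the non-coding gene Gm8378, inside Ston2, at 66.1 to 80.7% and 21.1 to 30.8%. Gm49698 (39.1 points, in the deeply covered stretch), Gm48538 (36.1 points) and Gm15208 (35.2 points) were the remaining 3. At Cinp, Gstz1, Cox16 and Ngb it was MEF-2 that was low, at 2.14 to 6.91%, while MEF-1 averaged 39.2 to 43.4%. A mean over CpGs can mix low and high CpGs, so these values do not show intermediate levels at single CpGs.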

How the data were processed

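The series holds target capture bisulfite sequencing (tcBS-seq) of 16 fibroblast libraries. The authors deposited, for each library, counts of unmethylated and methylated reads at every covered CpG, made from reads trimmed with Trim Galore 0.6.0 and aligned to mm10 with Bismark (mapping quality of 10 or more), and the 2 strands of a CpG are combined. Removal of duplicate reads is not given in the sources used here. The series table leaves chromosome 12 out, so the counts of each library were used, and 2 columns of per-library values stayed unused.

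Methylation level was methylated reads over all reads of a CpG, at CpGs covered 10 times or more in each of the 16 libraries. Read discordance was averaged over CpGs, and shares of CpGs were taken after drawing 10 reads per CpG and library without replacement. Single values were compared by exact permutation or sign-flip tests over clonal lines, with Benjamini-Hochberg adjustment over 9 tests. Single CpGs were tested with a quasi-binomial F-test, and windows of 10 Mb with at least 50 CpGs, promoters and gene bodies with at least 5 CpGs (GENCODE M21 protein-coding and long non-coding genes) by exact permutation, each adjusted over all autosomes. Named regions are the 8 promoters and 6 gene bodies with the widest differences in each direction, the 2 widest single CpGs in each direction, and members of the gene lists. The members, lists and tests were chosen with earlier results of these data known, and the alternative without 18 to 24 Mb, and the printed Meg3 start stretch, after the values were seen. Tests were tried on simulated data first. Clonal lines of the families share replicate numbers, but deviations of same-numbered lines correlated at -0.00400 to 0.00363, so numbers pair nothing. Intervals are 95% Wilson intervals. Python 3.11.15, numpy 2.4.6 and scipy 1.17.1 were used.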

Additional observations from a re-analysis of the deposited data

Results flagged for a closer look

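In 7 of 74 groups of clonal lines examined, 1 line stood apart from the other 6 of its family. About 1 in 20 would do so among independent, normally distributed groups. The measures here overlap, so no excess is read from the count. Read discordance over chromosome 12 was 0.176 in MEF-2 line 3 and 0.161 to 0.166 in the other MEF-2 lines. The Gm47767 promoter was at 72.1% in MEF-1 line 7 (others 47.1 to 57.6%), the Gm48633 promoter at 73.0% in MEF-1 line 2 (others 41.7 to 51.8%), the Insm2 promoter at 38.3% in MEF-1 line 5 (others 23.0 to 29.1%) and the Kcns3 promoter at 24.5% in MEF-1 line 7 (others 0 to 6.57%). The Gstz1 promoter was at 9.79% in MEF-2 line 5 (others 0.741 to 3.03%), and the Gm49698 gene body was at 51.6% in the same line (others 26.5 to 37.1%). At the named promoters these lines stayed on their own family's side of the difference.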

How the results depend on the processing

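The low read discordance, the scarcity of intermediate levels and the higher level at both Meg3 regions kept their direction and their call under every alternative run. The 32 named regions and CpGs did so wherever they could be tested. They were chosen as the widest passing differences of the same lines, so this outcome was nearly fixed. Testable were 8 of them with a minimum of 20 reads, 8 with 10 or more CpGs per region, 28 from pooled reads and 28 without 18 to 24 Mb. The 16 promoters were tested with 1000 bp on each side of a start. The 4 CpGs were tested without the Dlk1-Dio3 domain and with a difference of 20 points, and all 32 in the others. With a minimum of 20 reads the difference in mean level was -0.108 points in place of 1.40. Fewer features were then tested, and 3595 of 12293 CpGs (29.2%, 23.4% over all autosomes), 63 of 131 promoters (48.1%, 48.4%) and 173 of 330 gene bodies (52.4%, 56.2%) passed. Why the mean and the shares changed was not tested. The 9 windows then called (75%, 80.7% over all autosomes) held 6 higher in MEF-1 and 3 higher in MEF-2, in place of 8 and 1. With promoters of 1000 bp on each side of a start, 323 of 584 passed (55.3%, 54.1% over all autosomes). The mean level relative to other autosomes, -0.231 points, was not stable. It was 0.436 points without 18 to 24 Mb, and it lost its call after thinning to 10 reads (-0.210), without MEF-1 lines 1, 4 and 5 (-0.141), and in a fit with the replicate block (-0.231, p = 0.0938 by exact permutation), and leaving out 1 line at a time gave -0.289 to -0.195 (10 of 14 lost the call, all but MEF-1 lines 3 and 7 and MEF-2 lines 3 and 6). The cause was not tested. The paired fits with the replicate block changed no other call of a single value, and called 7569 of 33789 CpGs (22.4%, 17.3% over all autosomes), 9 of 12 windows (75%, 82.4%), 148 of 400 promoters (37%, 36.9%) and 302 of 668 gene bodies (45.2%, 43.4%). No block can be set for the sign-flip tests, which measure 1 family. The share of MEF-1 values at an extreme, for CpGs intermediate in MEF-2, was 28.7 points above other autosomes without lines 1, 4 and 5, where 4 lines cannot pass (exact p = 0.125). The reverse share, 4.56 points, ranged from 2.18 to 7.81 with 1 line left out (7.04 and 7.81 passed, without MEF-1 line 5 and line 7), and passed at 1.46 points when CpGs were chosen by the mean and at 9.79 points without 18 to 24 Mb. Depth was a median of 21 to 29 reads per CpG in MEF-1 clonal lines.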
